A study of Mus musculus with 6 samples.

Results

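The genes described here encode receptor chains of the common gamma-chain cytokine family. They were chosen by name from the deposited count table, and 7 of the 8 chains sought were found among its 21017 genes, namely Il2ra, Il2rb, Il2rg, Il4ra, Il7r, Il9r and Il21r. The chain Il13ra1, which pairs with the IL-4 receptor alpha chain, was not analysed here. All 7 were tested.

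Per the labels, the RNA came from lung group 2 innate lymphoid cells (ILC2s), lymphocytes without rearranged antigen receptors that make type 2 cytokines. IL-10-producing ILC2s were compared with IL-10-negative ILC2s, 3 libraries each. Every library came from 8-week-old C57BL/6J mice carrying an IL-10 GFP reporter. All animals had been given recombinant IL-33 by 3 intranasal doses of 0.5 µg, and all sorted cells then spent 48 h in medium holding 10 ng/mL of each of IL-2, IL-4 and IL-7, ligands of these receptors, before a second sort on the reporter. The labels do not say whether the 3 libraries of a population came from separate mice or cultures, so the p-values measure the spread between libraries, which may be technical.

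The common gamma chain, encoded by Il2rg, is the shared signalling subunit of the receptors for IL-2, IL-4, IL-7, IL-9, IL-15 and IL-21. A cytokine-specific chain supplies the other arm: the IL-2 receptor beta chain for IL-2 and IL-15, and the alpha chains of the IL-4, IL-7, IL-9 and IL-21 receptors for their own ligands. The IL-2 receptor alpha chain, CD25, raises affinity for IL-2 and carries no signalling domain of its own. JAK1 and JAK3, bound to the specific and the common chain, phosphorylate STAT5 after IL-2, IL-7 and IL-9, STAT6 after IL-4 and mainly STAT3 after IL-21. In ILC2s, IL-7 and IL-2 support survival and expansion.

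Library totals ran from 47012941 to 69511433 counts, and the receptor genes had between 691 and 403448 counts per library. Il10, on whose reporter the cells were sorted, stood at 848 ± 7.78 CPM in IL-10-producing cells, against 13.5 ± 0.608 CPM in the IL-10-negative cells (SD, n = 3), which checks the labels and is no finding. The list of 15 ILC2 markers holds Il2ra and Il7r themselves. The other 13, among them Gata3, Il1rl1, Klrg1 and Il5, were all tested, with 4 higher, 8 lower and 1 not past the threshold, and they summed to 10478 to 10510 CPM in IL-10-producing cells, against 11266 to 11362 CPM in the IL-10-negative cells. Most markers of other cells fell. Of 14 T-cell markers 13 were lower and 1 (Lef1) was higher, with a median log2 fold change of -2.37. Cd3e averaged 1.25 CPM in IL-10-producing cells, against 8.19 CPM in the IL-10-negative cells, and Cd8a 0.0594 CPM in IL-10-producing cells, against 15.3 CPM in the IL-10-negative cells. The list summed to 127 to 131 CPM in IL-10-producing cells, against 194 to 200 CPM in the IL-10-negative cells, with Trbc2, Lef1 and Trbc1 making up most of the sum. All 10 mast cell and basophil markers were lower (summed 14.9 to 16.3 CPM in IL-10-producing cells, against 74.0 to 78.4 CPM in IL-10-negative cells). So were 5 of 5 tested neutrophil and eosinophil markers (1.33 to 1.92 CPM in IL-10-producing cells, against 37.2 to 41.0 CPM in IL-10-negative cells). Among 4 tested markers of NK cells and ILC1s 3 were lower and 1 was higher, and Ncr1, Klra4, Gzmk and Klre1 had 0 CPM in every IL-10-producing library. Of the ILC3 markers 2 of 2 tested were lower. B-cell and plasma cell markers split into 2 higher and 5 lower of 8, macrophage, monocyte and dendritic cell markers into 2 and 3 of 8, and epithelial, endothelial and stromal markers into 1 and 1 of 4. Regulatory T-cell markers, a list that also holds Il2ra, split without it into 1 higher and 4 lower of 5. Lymphocytes and mast cells other than ILC2s also carry gamma-chain receptors. The part of these cells in the receptor values below was not tested, and in these bulk samples fewer cells of a type and less RNA per cell cannot be told apart.

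Receptor chains for IL-2 and IL-4 were higher in IL-10-producing cells, the shared gamma chain was lower, and the chains for IL-7, IL-9 and IL-21 did not pass the test. Il2ra, Il4ra and Il2rb rose and Il2rg fell, so 4 of the 7 receptor genes passed an adjusted p of 0.05, 3 higher and 1 lower. Over all 16654 genes tested the share called was 35.7%, with 17.1% higher and 18.6% lower. Among the 9148 genes with a mean of at least 10 CPM, the range in which all 7 receptors lie, it was 49.0%. The median log2 fold change of the 7 was 0.041, against -0.0038 over all genes tested. The groups did not overlap for 5 of the 7, a pattern that 45.2% of all genes tested shared. For genes of at least 10 CPM alone, this share was not counted. Levels are read counts scaled to the TMM-adjusted library size (CPM), and a positive log2 fold change means more RNA in IL-10-producing cells.

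**Figure D1:**
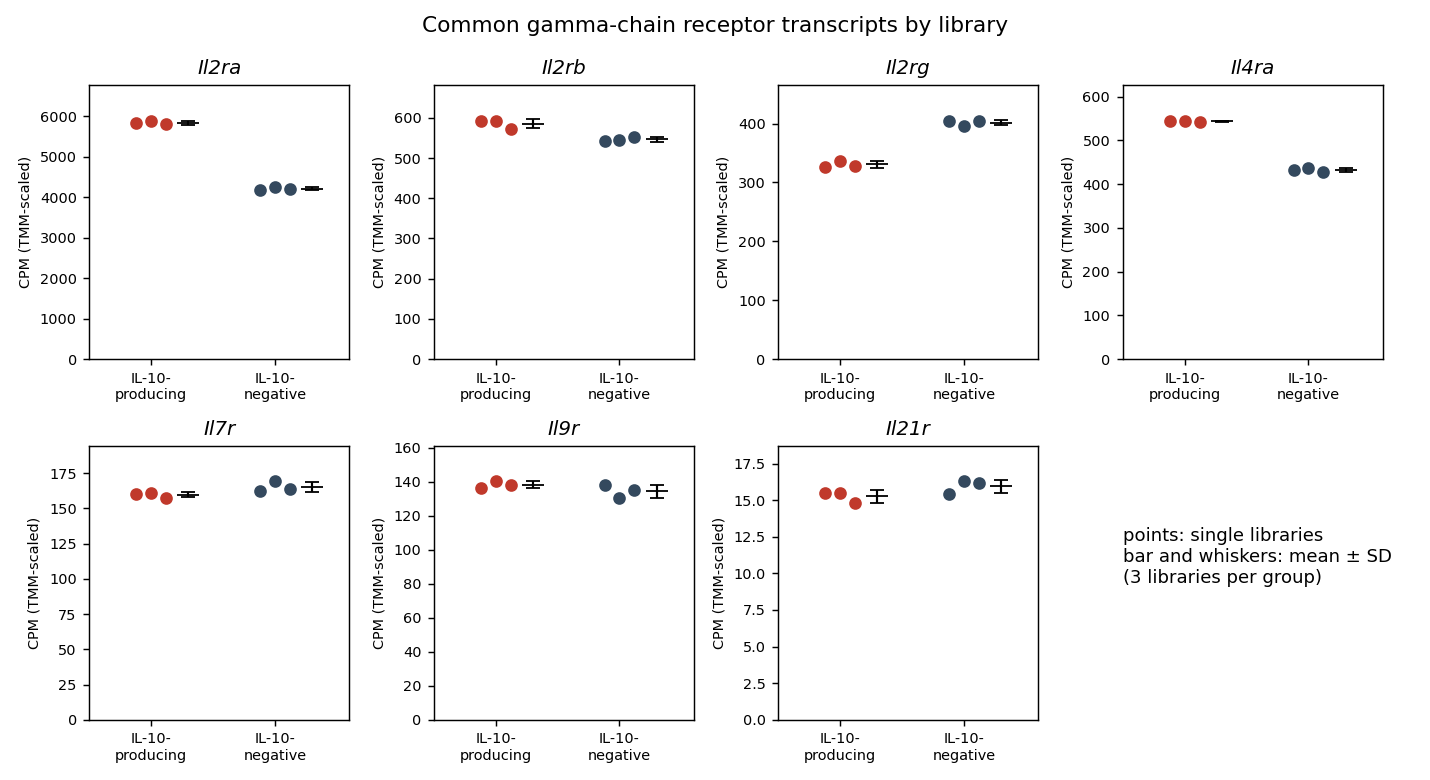
TMM-scaled CPM of the 7 receptor genes in each library (points; IL-10-producing red, left; IL-10-negative dark, right), with the mean ± SD of 3 libraries beside them and axes that start at 0. The groups stand apart for Il2ra (5797 to 5888 CPM in IL-10-producing, 4169 to 4246.5 CPM in IL-10-negative libraries), Il2rb, Il2rg, Il4ra and, by a small gap, Il7r, and overlap for Il9r and Il21r.

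Il2ra, the CD25 gene (ENSMUSG00000026770.5, chromosome 2, 11642807 to 11693193, mm10), had 5819, 5888 and 5797 CPM in the IL-10-producing libraries and 4169, 4246.5 and 4201 CPM in the IL-10-negative libraries. Each IL-10-producing library lay above each IL-10-negative library, and in mean CPM over all 6 libraries the gene ranked 5 among the 21017 genes of the table. The means were 5835 ± 47.4 CPM in IL-10-producing cells, against 4206 ± 38.7 CPM in the IL-10-negative cells (SD, n = 3 each), a 1.39-fold difference (95% interval 1.36 to 1.42; log2 fold change 0.47, SE 0.0143, adjusted p = 1.14e-18). The change was larger in size than that of 85.9% of all genes tested. A short unclassified transcript model inside Il2ra on the same strand, RP23-114B13.6, held 7.69 to 8.64 CPM in IL-10-producing cells, against 5.87 to 6.18 CPM in the IL-10-negative cells.

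Il2rb, the signalling chain shared by IL-2 and IL-15 (ENSMUSG00000068227.9, chromosome 15, 78479256 to 78495271), had 593, 592 and 572 CPM in IL-10-producing libraries and 542, 545 and 553 CPM in IL-10-negative libraries. The groups did not overlap, but the lowest IL-10-producing library lay close to the highest IL-10-negative library. The difference was small, 1.07-fold (95% interval 1.04 to 1.10; log2 fold change 0.099, SE 0.0189, adjusted p = 0.000159). Against a change of 1.2-fold the call was lost (adjusted p = 1; range over all alternatives 8.53e-07 to 1). The IL-2 receptor alpha and beta chains differed by unequal amounts: the ratio of Il2ra to Il2rb counts, examined after the values had been seen, was 9.97 ± 0.162 in IL-10-producing cells, against 7.69 ± 0.0969 in IL-10-negative cells (SD, n = 3 each).

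Il2rg, the common gamma chain (ENSMUSG00000031304.18, chromosome X, 101264378 to 101268255), went the other way. It had 327, 337 and 328 CPM in IL-10-producing libraries and 405, 396 and 404 CPM in IL-10-negative libraries, with no overlap. The fold change was 0.824 (95% interval 0.801 to 0.847; log2 fold change -0.28, SE 0.0198, adjusted p = 2.06e-11). It did not pass the test against a 1.2-fold change (adjusted p = 0.511; range over all alternatives 7.17e-40 to 0.511). A neighbouring gene model on the same strand, RP23-440J15.1, lies 386 bases from Il2rg and averaged 1.04 ± 0.481 CPM in IL-10-producing cells, against 1.29 ± 0.363 CPM in the IL-10-negative cells.

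Il4ra (ENSMUSG00000030748.9, chromosome 7, 125552120 to 125579474) encodes the IL-4 receptor alpha chain, a part of receptors for IL-4 and IL-13. It had 545, 544 and 542 CPM in IL-10-producing libraries and 433, 438 and 429 CPM in IL-10-negative libraries. The 3 IL-10-producing values lay within 4 CPM of each other and above every IL-10-negative value. The difference was 1.25-fold (95% interval 1.22 to 1.29; log2 fold change 0.33, SE 0.018, adjusted p = 1.77e-13), and Il4ra and Il2ra were the 2 receptor genes that also passed the test against 1.2-fold, which 7.91% of all genes tested passed. An antisense gene is annotated across Il4ra in GENCODE M21, and the sources used here do not say if reads were counted by strand.

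Il7r, the IL-7 receptor alpha chain (ENSMUSG00000003882.5, chromosome 15, 9505788 to 9530176), had 161, 161 and 157 CPM in IL-10-producing libraries and 162, 169 and 164 CPM in IL-10-negative libraries. The groups were apart by about 1 CPM, and the difference did not pass (log2 fold change -0.047, 95% interval -0.096 to 0.0011, adjusted p = 0.125). With library size as the only scaling it passed as lower (log2 fold change -0.078, adjusted p = 0.0101; range over all alternatives 0.0101 to 1). With TMM scaling the lower end of the interval was 0.936-fold, from a spread between libraries that may be technical.

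Il9r, the IL-9 receptor chain (ENSMUSG00000020279.10, chromosome 11, 32187541 to 32200279), had 136, 140 and 138 CPM in IL-10-producing libraries and 138, 130 and 135 CPM in IL-10-negative libraries. The groups overlapped and the difference did not pass (1.03-fold, 95% interval 0.992 to 1.07, adjusted p = 0.227). Il21r, the IL-21 receptor (ENSMUSG00000030745.9, chromosome 7, 125603429 to 125633570), was the lowest of the 7, at 15.5, 15.5 and 14.8 CPM in IL-10-producing libraries and 15.4, 16.3 and 16.15 CPM in IL-10-negative libraries. Its groups overlapped as well (0.957-fold, 95% interval 0.881 to 1.04, adjusted p = 0.429). Il21r lies 23.96 kb from Il4ra on the same strand, and the ratio of Il4ra to Il21r counts, also examined after the values had been seen, was 35.7 ± 0.861 in IL-10-producing cells, against 27.2 ± 0.792 in IL-10-negative cells (SD, n = 3 each). Il15ra, the IL-15 receptor alpha gene, lies 12.1 kb beyond the end of Il2ra. It had 10.4, 10.6 and 10.6 CPM in IL-10-producing libraries and 11.4, 11.8 and 10.8 CPM in IL-10-negative libraries and did not pass (log2 fold change -0.10, adjusted p = 0.256).

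The upstream sequence of the 3 receptor genes with the largest differences is given to show which letters lie next to their starts. RefSeq promoters (GRCm38.p6) matched 6 of the 7 receptor genes, and Il2rb had no match. The stretches are chr2:11642542-11642791 on the plus strand for Il2ra, chrX:101268256-101268505 on the minus strand for Il2rg and chr7:125552021-125552119 on the plus strand for Il4ra, each ending before the first annotated start, and they run 5′ to 3′. Capitals mark GGAAG, the core bound by ETS factors, and GGGAA followed after any 2 bases by CCC, a form of the NF-kB site, on either strand.
Il2ra: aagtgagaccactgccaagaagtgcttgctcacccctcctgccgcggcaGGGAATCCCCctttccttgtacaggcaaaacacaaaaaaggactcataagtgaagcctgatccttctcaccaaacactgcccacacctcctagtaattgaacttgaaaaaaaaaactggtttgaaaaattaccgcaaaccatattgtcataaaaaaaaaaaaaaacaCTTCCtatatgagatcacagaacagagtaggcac
Il4ra: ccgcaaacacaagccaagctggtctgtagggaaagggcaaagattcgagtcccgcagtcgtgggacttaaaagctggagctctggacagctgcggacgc
Il2rg: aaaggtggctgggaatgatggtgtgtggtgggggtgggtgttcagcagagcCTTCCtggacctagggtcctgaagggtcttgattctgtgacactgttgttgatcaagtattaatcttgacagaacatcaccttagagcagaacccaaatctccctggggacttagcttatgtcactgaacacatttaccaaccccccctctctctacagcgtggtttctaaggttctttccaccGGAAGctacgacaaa
Il2ra held the NF-kB type decamer at position -201 from its RefSeq start, a form found in 1.53% of 32851 RefSeq promoters over 250 upstream bases, and an ETS core at -34. Il2rg held ETS cores at -199 and -15 and Il4ra held a core at -6 from its RefSeq start. The Il4ra core lies inside the annotated gene, as do 151 of its 250 window bases, and so outside the stretch printed. The ETS core is common, at 64.1% of promoters. TTC and GAA set 3 bases apart (7.02% of promoters) and 4 bases apart (5.85%), palindromes that STAT5 and STAT6 are known to bind, were searched on both strands over the same 250 bases. Il7r held the form with 3 bases between at -142, and neither form was among the letters of Il2ra, Il4ra, Il2rg, Il9r or Il21r. The GATA motif GATAA (22.6% of promoters), searched in the same way, occurred only in Il9r of the 6 genes, at -222, -169 and -30. The motifs were chosen with the sequences in view. A match here is a description of letters and not a bound site.

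The receptor genes differ widely in abundance, and levels were compared between genes per length. Per kb of the longest GENCODE M21 transcript, Il2ra stood at 1322.5 ± 10.7 CPM per kb in IL-10-producing and 953 ± 8.78 CPM per kb in IL-10-negative libraries. It made up 71.6% to 71.8% of the summed level of the 7 chains per kb in the IL-10-producing libraries and 63.8% to 64.3% in the IL-10-negative libraries. In IL-10-producing libraries Il2rg followed at 198 ± 3.39, Il2rb at 140 ± 2.80, Il4ra at 103 ± 0.338, Il7r at 45.1 ± 0.541, Il9r at 30.8 ± 0.441 and Il21r at 6.10 ± 0.164 CPM per kb. In IL-10-negative libraries Il2rg stood at 241 ± 2.88, Il2rb at 130 ± 1.38, Il4ra at 82.4 ± 0.836, Il7r at 46.6 ± 1.04, Il9r at 30.0 ± 0.878 and Il21r at 6.38 ± 0.184 CPM per kb (SD, n = 3). Neighbours in this order differed by more than their spread in both populations. The order was the same in both populations, and also with the union of all exons as the length. By that length Il2rg (139 ± 2.37) and Il2rb (137 ± 2.74 CPM per kb) lay within their spread of each other in IL-10-producing libraries, while in IL-10-negative libraries they stood at 168 ± 2.02 and 128 ± 1.35 CPM per kb.

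**Figure D2:**
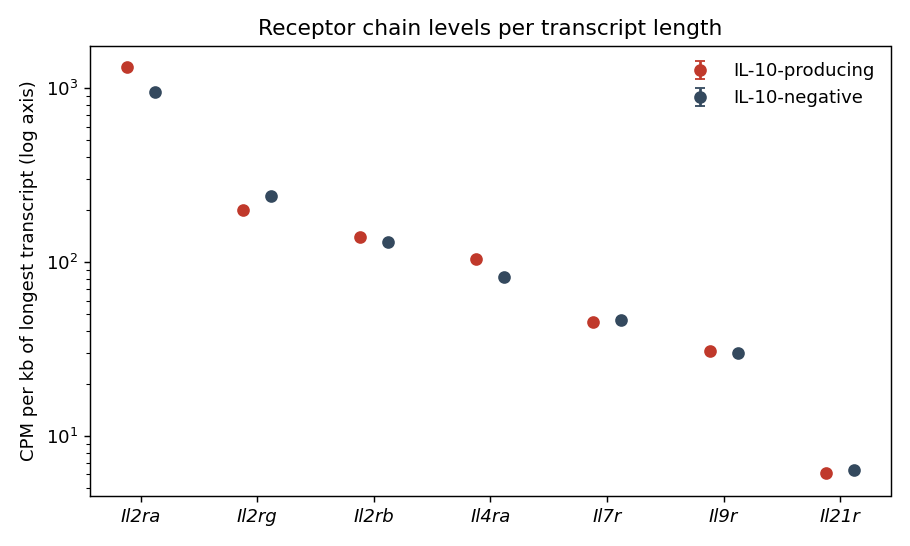
Mean level of each receptor gene in CPM per kb of its longest transcript, on a log axis, in IL-10-producing (red, left of each pair) and IL-10-negative libraries (dark, right). Whiskers are SD over 3 libraries and are mostly hidden by the symbols; Il2ra is the highest of the 7 at 1322.5 CPM per kb in IL-10-producing and 953 CPM per kb in IL-10-negative libraries, and Il21r the lowest.

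Il2rg is the partner of the other chains, so each chain was also expressed as a ratio to Il2rg within a library, which needs no scaling between libraries. All 6 ratios were higher in IL-10-producing than in IL-10-negative libraries without overlap. Il2rg itself was lower (log2 fold change -0.28), so a gene with no change of its own would also have a higher ratio to it. The share of all genes with such a ratio was not counted. The ratio of Il2ra to Il2rg counts was 17.6 ± 0.174 in IL-10-producing cells, against 10.5 ± 0.221 in IL-10-negative cells, a 1.68-fold difference. For Il4ra it was 1.64 ± 0.0280 in IL-10-producing cells, against 1.08 ± 0.0230 in IL-10-negative cells (1.52-fold), and for Il2rb 1.77 ± 0.0385 in IL-10-producing cells, against 1.36 ± 0.0205 in IL-10-negative cells (1.30-fold). Il9r, Il7r and Il21r, which did not pass by themselves, differed by 1.25-fold, 1.18-fold and 1.16-fold relative to Il2rg, ratios that carry the fall of Il2rg. The 5 specific chains Il2rb, Il4ra, Il7r, Il9r and Il21r were also summed per kb of the longest transcript. This sum was 1.62 to 1.67 times that of Il2rg in IL-10-producing libraries and 1.21 to 1.25 times in IL-10-negative libraries. With the union of all exons as the length, group means gave 2.12 times in IL-10-producing and 1.59 times in IL-10-negative cells. The multiple thus depends on the length used. With 3 libraries against 3, the two-sided exact permutation test cannot go below p = 0.1, the value each of 8 ratios reached (0.1 after adjustment over the 8).

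**Figure D3:**
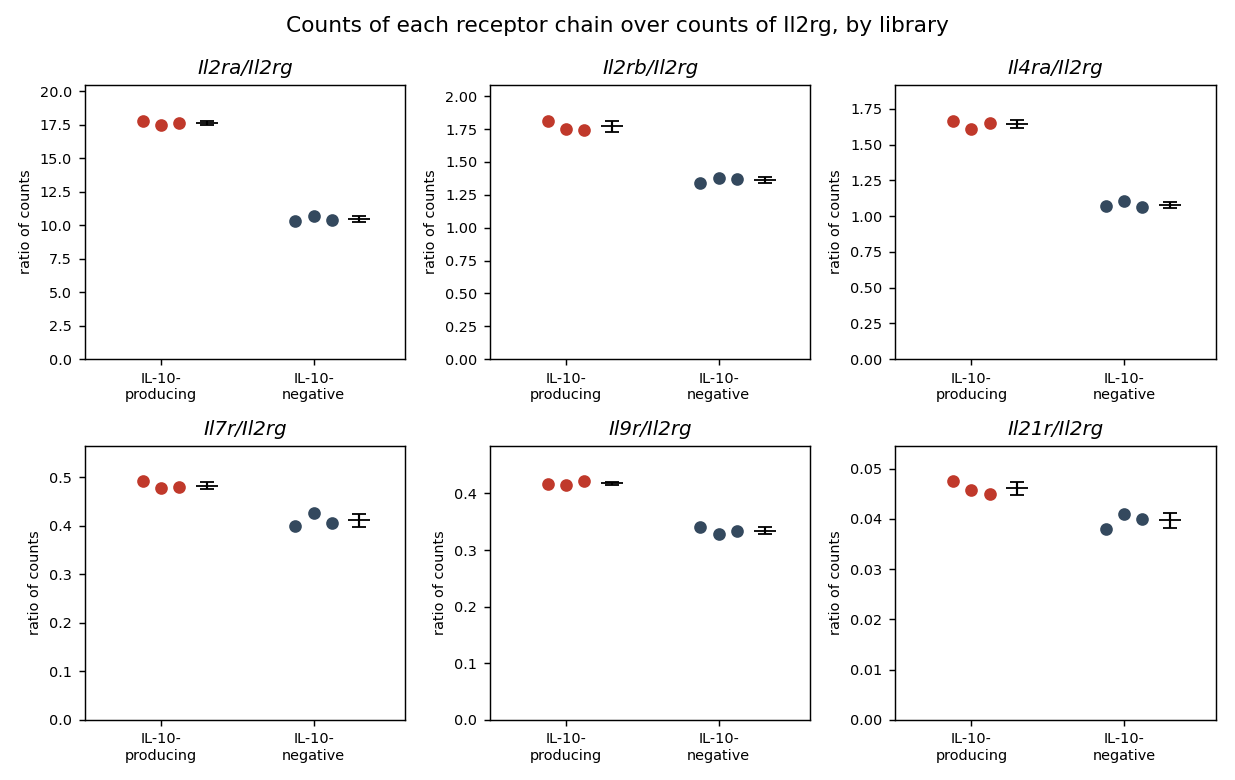
Counts of each receptor gene divided by counts of Il2rg in each library (points; IL-10-producing red, left; IL-10-negative dark, right), with mean ± SD of 3 libraries and axes from 0. The groups stand apart in all 6 panels, most widely for Il2ra/Il2rg at 17.6 in IL-10-producing and 10.5 in IL-10-negative libraries. Il2rg, the divisor, was itself lower in IL-10-producing libraries.

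The genes that act with the receptors were followed in lists of known pathway members. Of 72 such genes 65 were tested, and 17 were higher, 26 lower and 22 not past the threshold (66.2% called, median log2 fold change -0.050). The 17 include Il10, whose difference the sort fixed. These genes are mostly abundant, and the 49.0% called among genes of at least 10 CPM is the nearer background.

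Among ligands, 4 of 8 genes were tested, with 1 higher and 3 lower (median log2 fold change -0.23). Il4, whose product was also added to the culture, had 8.996, 10.5 and 9.13 CPM in IL-10-producing libraries and 12.1, 11.7 and 11.2 CPM in IL-10-negative libraries (log2 fold change -0.28, adjusted p = 0.00357). Il9, an autocrine growth factor of ILC2s, fell to 1.12, 1.23 and 0.941 CPM in IL-10-producing libraries, against 8.73, 10.2 and 7.92 CPM in IL-10-negative libraries (log2 fold change -3.01). On the log2 scale of the authors' normalized signal plus a pseudocount, which shrinks low values, the difference was -2.09 with 1 and -1.02 with 5 for Il9, and -0.18 with 5 for Il4. The mast cell and basophil markers, lower in the same libraries as given above, stand beside this value, and their part in it was not tested. Il13, a ligand of receptors that contain Il4ra, fell by 0.19 on the log2 scale. Il7 stayed under 0.5 CPM in every library (0.413 ± 0.0668 in IL-10-producing cells, against 0.192 ± 0.034 CPM in the IL-10-negative cells). It passed as higher (adjusted p = 0.0347) but lost the call with DESeq2 (0.0755), with the replicate number as a block (0.0551) and without any of 5 of the 6 libraries, the exception being IL-10-negative replicate 3 (range over all alternatives up to 0.165). Of the other receptor chains, Crlf2, which joins Il7r to form the TSLP receptor, had 82.6 ± 3.62 CPM in IL-10-producing cells, against 90.4 ± 1.18 CPM in the IL-10-negative cells (log2 fold change -0.13, adjusted p = 0.00134). In the test against 1.2-fold, Il4, Il13 and Crlf2 lost the call and Il9 kept it.

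The receptor kinases and the STAT factors named here were lower where they changed. Of 4 receptor kinases 3 were lower and 0 higher (median -0.14). Jak2 also serves cytokine receptors outside this family. It had 128, 129 and 130 CPM in IL-10-producing libraries and 179, 185 and 178 CPM in IL-10-negative libraries (log2 fold change -0.48, adjusted p = 1.07e-14). Jak1, which binds the specific chains, had 514 ± 6.24 CPM in IL-10-producing cells, against 585 ± 9.30 CPM in the IL-10-negative cells (log2 fold change -0.19). Jak3, the kinase bound to the common gamma chain, did not pass, with 434 ± 7.34 CPM in IL-10-producing libraries and 426 ± 1.49 CPM in IL-10-negative libraries (log2 fold change 0.027, adjusted p = 0.299). Tyk2 was 0.941-fold (adjusted p = 0.0087) and lost the call without IL-10-negative replicate 1 (0.0628) or IL-10-producing replicate 1 (0.0566). Stat6, which acts below Il4ra, averaged 101 ± 0.641 CPM in IL-10-producing cells, against 117 ± 1.29 CPM in the IL-10-negative cells (log2 fold change -0.21). Stat5a and Stat5b fell by 0.13 and 0.11 on the log2 scale. Stat3 did not pass (adjusted p = 0.0899), though with library size as the only scaling it was lower. The falls of Stat6, Stat5a, Stat5b, Jak1 and Tyk2 did not pass the test against 1.2-fold, and that of Jak2 did.

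Adaptors and inhibitors moved in both directions. Of 11 adaptor and kinase genes tested 4 were higher and 2 lower (median -0.020). Sos1, an exchange factor for RAS, averaged 149 ± 3.54 CPM in IL-10-producing cells, against 122 ± 1.49 CPM in IL-10-negative cells (1.22-fold). Pik3r1, the regulatory subunit of PI 3-kinase, rose 1.21-fold, whereas Pik3cd, the catalytic delta subunit, fell by 0.20 on the log2 scale and Gab2, a docking protein, by 0.63. Of 12 inhibitors 3 were higher and 3 lower (median -0.051). Cish, a feedback inhibitor induced by STAT5, had 421, 419 and 413 CPM in IL-10-producing libraries and 500.4, 493 and 497 CPM in IL-10-negative libraries (log2 fold change -0.25, adjusted p = 3.83e-11). Sh2b3, the adaptor LNK, and Cblb, a ubiquitin ligase, fell by 0.63 and 0.54 on the log2 scale, and Cbl, a related ligase, rose by 0.11. Of the SOCS genes, Socs3 was higher, at 517 ± 10.6 CPM in IL-10-producing cells, against 481 ± 6.13 CPM in IL-10-negative cells (adjusted p = 0.000124), and Socs1 (adjusted p = 0.0614), Socs2 (adjusted p = 0.522) and Socs5 (adjusted p = 0.126) did not pass. With library size as the only scaling, 5 adaptor genes and 5 inhibitors were lower. In the test against 1.2-fold, Sos1, Pik3r1, Pik3cd, Cish, Cbl and Socs3 lost the call, and Gab2, Sh2b3 and Cblb kept it.

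**Figure D4:**
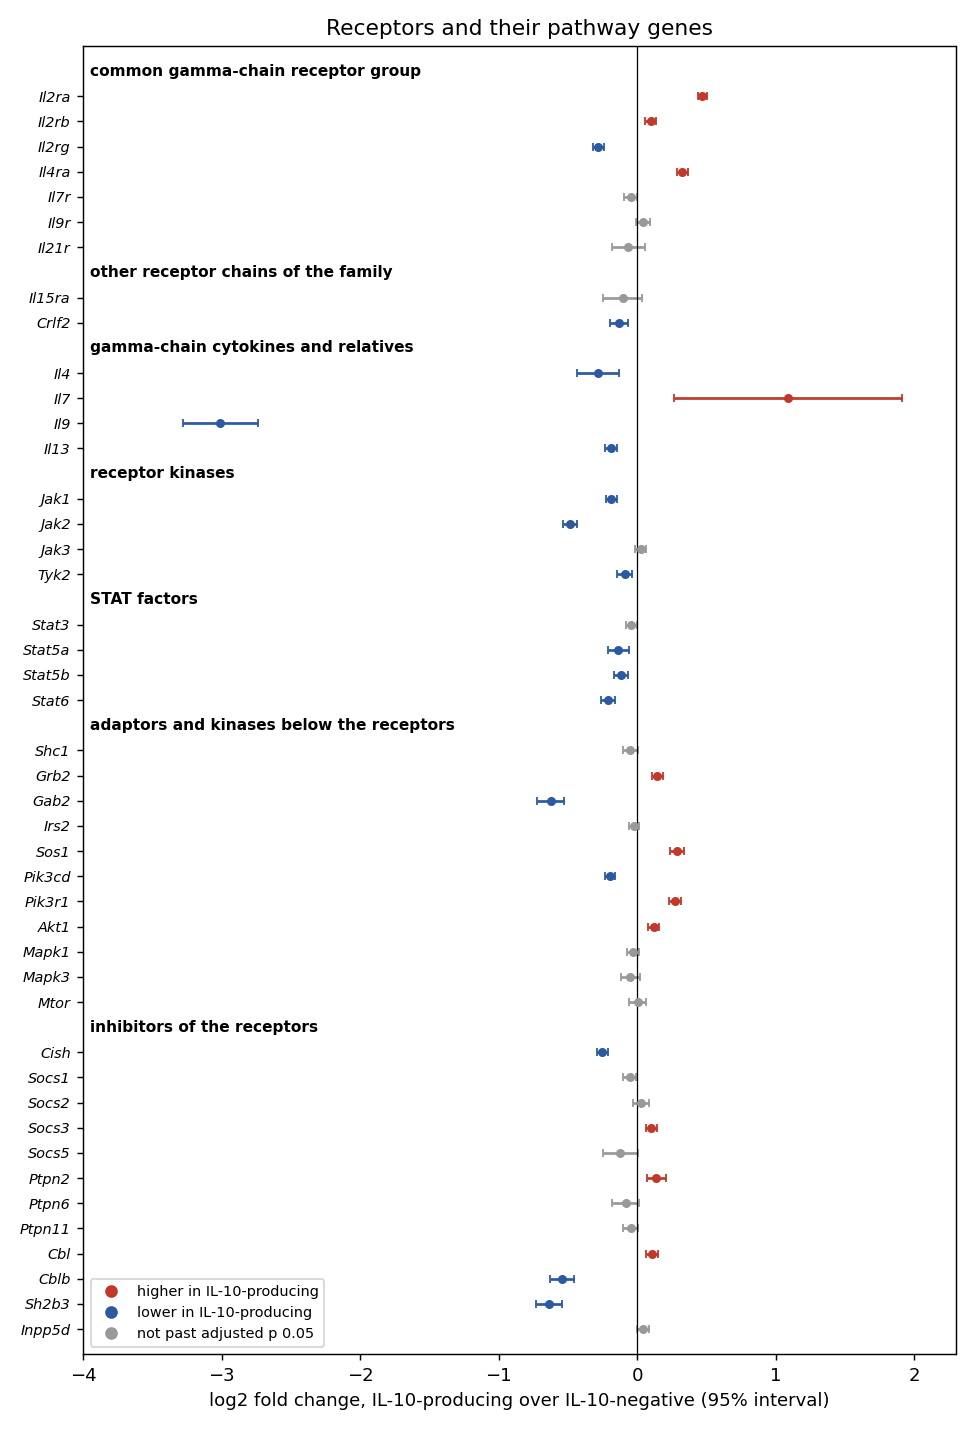
Log2 fold change (IL-10-producing over IL-10-negative) of the 7 receptor genes and of pathway genes by role, with 95% intervals from the edgeR fit; red genes were higher, blue lower and grey not past an adjusted p of 0.05. Il2ra and Il4ra lie right of 0 and Il2rg left of it, and the kinases and STAT factors shown that passed all lie left of 0.

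Genes known to respond to these receptors did not move together. Of 18 genes known to be induced by IL-2 or IL-7 through STAT5 in lymphocytes, 4 were higher and 8 lower (median -0.043). Bcl2, an anti-apoptotic gene, fell to 73.1 ± 0.878 CPM in IL-10-producing libraries, against 126 ± 1.77 CPM in IL-10-negative libraries. Ltb, the lymphotoxin beta gene, averaged 14.1 ± 0.542 CPM in IL-10-producing cells, against 47.6 ± 0.973 CPM in IL-10-negative cells. Il1rl1, the IL-33 receptor, averaged 3299 ± 31.7 CPM in IL-10-producing cells, against 4069 ± 30.1 CPM in IL-10-negative cells. Gzma, granzyme A, rose 7.36-fold. These libraries also held lower T-cell markers, as given above, and the part of those cells in these values was not tested. Myc (adjusted p = 0.984) and Ccnd2 (adjusted p = 0.843) did not pass. Of 12 tested genes known to be induced by IL-4 through STAT6, 5 were higher and 3 lower (median -0.035), and the 5 include Il10, which the sort fixed. Whether STAT6 drives these genes in ILC2s was not tested. Il24, which encodes a relative of IL-10, rose 3.03-fold, Arg1, arginase 1, 1.57-fold and Nfil3, a basic leucine zipper factor, 1.28-fold. The 3 lower genes were Ecm1, Gata3 and Ccr8, by 0.30, 0.23 and 0.081 on the log2 scale. In the test against 1.2-fold these 3 lost the call, and Il24, Arg1 and Nfil3 kept it. Arg1 averaged 903 ± 11.5 CPM in IL-10-producing cells, against 573 ± 6.91 CPM in IL-10-negative cells.

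The genes most like the 3 receptor genes with the largest differences were sought by the root mean square difference of centred log2 CPM over the 6 libraries, among 10330 other named genes of at least 5 CPM. For Il2ra these were Fam46a, at 249.95 ± 1.95 CPM in IL-10-producing cells, against 181 ± 1.70 CPM in the IL-10-negative cells (difference 0.00715), Epas1 (0.0126) and Aurka (0.0166). For Il4ra they were M6pr (0.00796), Ripk3 (0.0124) and Tpx2 (0.0125), and for Il2rg Cbx7 (0.00856), Slc35b4 (0.0101) and RP23-285C18.2 (0.0122). With 6 libraries in 2 groups, this likeness reflects mainly the size of the difference between the groups.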

How the data were processed

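RNA of 3 IL-10-producing and 3 IL-10-negative ILC2 libraries was sequenced. The build was mm10 and the tools named are STAR 2.5.3a, bcl2fastq 2.17.1.14 and Partek, all per the submitters' processing notes. The annotation release and the strand setting were not given in the sources used here. Estimated counts per gene, deposited by the authors, carry no scaling between libraries, and 50.17% of the values were not whole. They also deposited a normalized signal table of 13824 genes, in which 100% of values equalled the estimated count plus 1 times a factor per library (tolerance 1%). Of the gene identifiers, 19917 had the same version in GENCODE M21, with the same start, and the same end after 1 was subtracted from the listed stop.

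After rounding of the estimated counts, edgeR's quasi-likelihood test was applied (edgeR 4.0.16, R 4.3.3) with TMM factors, filterByExpr defaults (minimum count 10, minimum total 15), the group as the only term and Benjamini-Hochberg adjustment over 16654 genes (threshold 0.05). Standard errors were the log2 fold change over the root of F, and intervals are 95%. The procedure was tested on simulated data. Far fewer genes changed there than were called here, and its pass mark for detection covered only changes larger than those of the receptor genes. Ratios were compared with exact permutation tests (scipy 1.17.1). Other settings tried were library size as the only scaling, DESeq2 size factors, a minimum of 50 counts in 3 libraries, no filter, limma-voom (limma 3.58.1), DESeq2 1.42.0, limma on log2 of the authors' normalized signal plus 1 or 5, a test against a 1.2-fold change, a replicate block and leaving out each library.

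The receptor genes, pathway and marker lists were chosen with earlier results of these data known. Named genes were the receptor genes, Il10, up to 4 genes of smallest p past the threshold in each pathway list, and the 3 most similar genes for 3 receptor genes. Other genes named, among them genes that did not pass, were added after their values were seen, and 1 pathway gene is not reported here. No library was a copy of another: replicate pairs varied 2.91 to 11.3 times as much as Poisson counting alone (mean over genes). Library totals were 47012941 to 69511433 counts.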

Additional observations from a re-analysis of the deposited data

How the results depend on the processing

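Il2ra and Il4ra kept their direction and stayed past the threshold under all alternatives tried, with log2 fold changes of 0.44 to 0.48 and 0.30 to 0.34. Il2rb and Il2rg did so except in the test against a 1.2-fold change (log2 fold change 0.099, adjusted p = 1, and -0.28, adjusted p = 0.511). Il7r passed as lower with library size only (-0.078, adjusted p = 0.0101). Il9r and Il21r passed under no alternative. With library size only, 2 receptor genes were lower (not 1), and of 6000 genes called 36.8% were higher, against 47.8% with TMM, while the median of all genes moved to -0.034. The test against a 1.2-fold change called 1317 genes (407 higher, 910 lower), 2 receptor genes (0 of them lower) and 15 pathway genes (7 higher, 8 lower). The 7 include Il10, whose difference the sort fixed. This test asks for a larger change, so fewer calls follow from its construction. Leaving out each library kept 4 receptor calls, 3 higher and 1 lower, each time. The labels number the replicates of both groups, but same-numbered libraries did not deviate together (correlations -0.028 to -0.0070), and 0 of the 6 libraries correlated best with its own number. With the replicate number as a block, 5817 genes and 4 receptor genes were called. The 8 ratios kept their direction with the authors' normalized values, with the block and without any library, but these checks could not have reversed it. A factor per library cancels in a ratio, and a block leaves the mean difference unchanged. Groups without overlap keep their order when a library is left out.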
